A study of Mus musculus with 3 samples.

Results

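The genes described here are 10 regulators of mitosis, namely the kinases Cdk1, Plk1, Aurka, Aurkb and Bub1, the cyclins Ccnb1 and Ccnb2, the anaphase activator Cdc20, the topoisomerase Top2a and the proliferation marker Mki67. They were chosen by symbol, knowing that some of them differed between the 2 knockdown libraries described below. All 10 were found among the 12852 genes of the table. Expression was measured by RNA sequencing of total RNA from B16F10, an established mouse melanoma line. The tested cells carried siRNA against Med23, a subunit of the Mediator complex that links transcription factors to RNA polymerase II. They gave 2 libraries titled siMed23A and siMed23B, which the labels call Med23 knockdown. Whether A and B stand for the same siRNA is not stated, so the 2 libraries may not be replicates of 1 treatment. The other cells, titled siCtrl and labelled wild type, gave 1 library. The labels give no siRNA sequence, dose or time after transfection, and nothing says that the knockdown libraries came from separate cultures, so their spread may be technical. The header runs both knockdown columns into one name, so which siRNA title each carries is unsettled, and first and second knockdown library refer to column order alone.

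Cells enter mitosis when cyclin B binds and activates Cdk1, and the Polo and Aurora kinases then build the spindle and prepare the chromosomes. The spindle checkpoint, with Bub1, holds Cdc20 until every kinetochore is attached. Cdc20 then turns on the anaphase-promoting complex, a ubiquitin ligase that has cyclin B and securin destroyed. The mRNAs of these genes peak together in G2 and mitosis in dividing cells, where CCAAT boxes, bound by the factor NF-Y, and the cell cycle homology region (CHR), bound by complexes around the MuvB core, are known elements of their promoters.

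Values were RPKM, which scales reads to the length of the transcript and the size of the library. The deposited values had been given 1 common distribution, each library summing to 255492 RPKM, so the read depth behind a value is unknown and a change in total RNA cannot be seen. Med23 was 1.65 and 1.61 RPKM in the knockdown libraries, against 5.23 RPKM in the control (log2 ratio -1.24, limma adjusted p = 0.00121). All 9 melanoma identity genes listed, among them Tyr, Pmel and Sox10, were in the table, and summed to 3031 and 2919 RPKM in the knockdown libraries and to 7100 RPKM in the control, with all 9 called lower by limma. Of 20 markers of fibroblasts, leukocytes, endothelium and keratinocytes, 5 had a row, none of them listed at 0, and their sum was 2.15 and 2.60 RPKM after knockdown and 1.59 RPKM in the control. In a bulk sample, fewer cells in mitosis and less of an mRNA per cell cannot be told apart.

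The promoters of the regulators are shown first, because CCAAT stood in each window found, whichever way the mRNA moved, and the CHR letters in most of them. RefSeq promoter windows, from 250 bases before to 50 bases after a gene's start in the build GRCm38.p6, were found for 9 of the 10 genes. The letters CCAAT were counted on both strands and stood in 9 of the 9 windows, against 43.7% of the 6986 tested genes with a window and 37.4% of all 32851 windows. The letters TTTGAA, the common form of the CHR, stood in 7 of the 9 windows, against 13.6% of tested genes and 17.9% of all windows. A variant, TTCGAA, stood in the windows of Bub1 and Top2a and in 2.62% of tested genes and 1.56% of all windows. Of 118 other mitotic genes with a window, from the lists described below, 57.6% had CCAAT, 44.1% TTTGAA and 6.78% TTCGAA. The letters were thus not particular to the regulators. None of the matches overlapped in these 9 windows. The 200 bases before the start are printed for the gene with the largest rise, the gene with the largest fall, and the pair whose knockdown libraries lay on opposite sides of the control, with CCAAT boxes and both CHR forms, on either strand, in capitals.
Cdc20, chr4:118437344-118437543, minus strand: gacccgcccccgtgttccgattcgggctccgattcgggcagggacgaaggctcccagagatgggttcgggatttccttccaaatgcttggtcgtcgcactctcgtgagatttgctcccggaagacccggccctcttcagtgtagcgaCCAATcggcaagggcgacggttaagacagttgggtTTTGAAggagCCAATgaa
Mki67, chr7:135716380-135716579, minus strand: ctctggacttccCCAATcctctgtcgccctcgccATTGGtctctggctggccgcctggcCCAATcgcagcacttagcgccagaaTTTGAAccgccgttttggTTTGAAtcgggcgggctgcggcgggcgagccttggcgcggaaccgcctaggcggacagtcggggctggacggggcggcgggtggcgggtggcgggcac
Bub1, chr2:127831860-127832059, minus strand: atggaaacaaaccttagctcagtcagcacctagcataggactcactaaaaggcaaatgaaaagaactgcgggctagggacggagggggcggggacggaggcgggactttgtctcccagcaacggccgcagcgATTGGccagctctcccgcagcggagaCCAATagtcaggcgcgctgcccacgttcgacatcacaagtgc
Top2a, chr11:99024190-99024389, minus strand: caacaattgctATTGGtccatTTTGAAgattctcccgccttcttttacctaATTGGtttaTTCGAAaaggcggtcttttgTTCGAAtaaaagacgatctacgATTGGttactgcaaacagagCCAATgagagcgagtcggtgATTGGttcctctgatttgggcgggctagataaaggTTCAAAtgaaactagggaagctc
In the stretch of Cdc20, TTTGAA lies between a pair of CCAAT boxes close to the start. That of Mki67 has 3 CCAAT boxes followed by 2 copies of TTTGAA, the nearer beginning 98 bases before the start. Bub1 has its TTCGAA 15 bases after the start, outside the printed stretch, and Top2a has 6 CCAAT boxes in its whole window. Of the 15 pairs of neighbouring CCAAT boxes in the 9 windows, 5 began 31 to 33 bases apart, in Aurka, Ccnb1, Ccnb2 and Cdk1. A match describes letters, not binding.

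**Figure D1:**
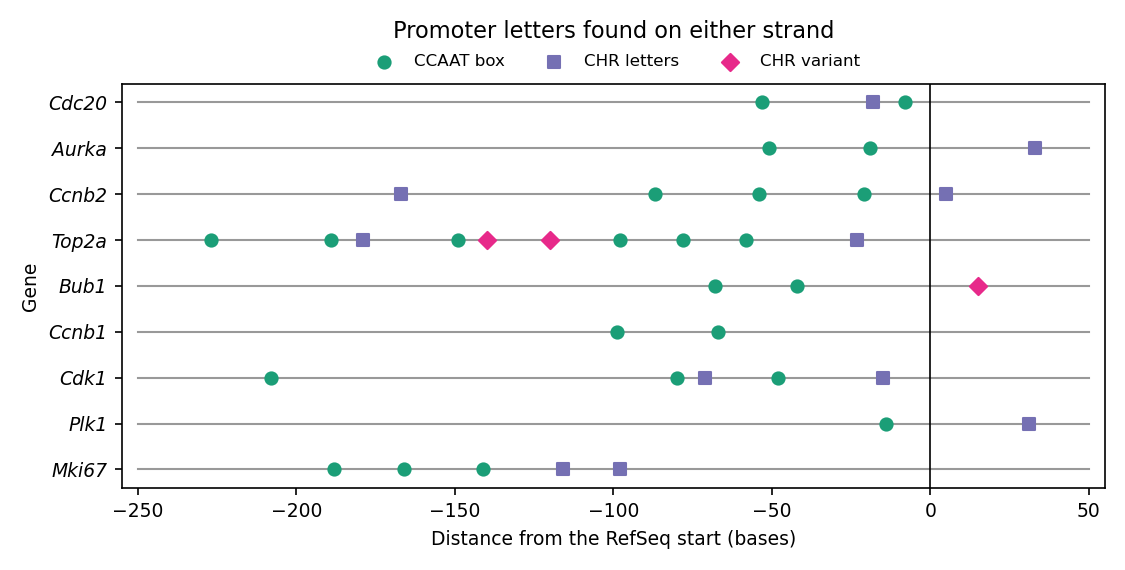
Positions of CCAAT boxes (circles), the CHR letters (squares) and the CHR variant (diamonds) in bases from the RefSeq start for 9 mitotic regulators, with the gene of the highest log2 ratio of knockdown to control at the top. CCAAT boxes lie before the start in every gene drawn, and the CHR letters lie on either side of it.

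The 10 mRNAs did not move together after knockdown of Med23. Cdc20 and Aurka rose, Cdk1, Aurkb, Plk1 and Mki67 fell, and the test by limma was not passed by Ccnb1, Ccnb2, Bub1 and Top2a. That is 2 called higher and 4 called lower, where 26.3% of all 9722 tested genes were called higher and 24.0% lower, and the 6 calls stand beside 50.3% of all tested genes called either way. All 10 passed the filter on low values (a 3-library mean of 1 RPKM or more). A change of at least 1.5-fold in both knockdown libraries, counted on the log2(RPKM + 1) scale, was met upward by Cdc20 alone and downward by Mki67 alone, where 10.5% and 9.98% of tested genes met it. With values corrected for transcript length and GC content no regulator met it upward and Aurkb alone met it downward, where 8.31% and 8.38% of tested genes did. The median log2 ratio of the 10 genes was -0.15, beside 0.01 over all tested genes. These p-values take their spread from the 2 knockdown libraries and a prior over all genes, with none from the lone control. If the control is assumed to vary 3 times as much (SD) as a knockdown library, none of the 10 was called, with limma adjusted p from 0.143 to 0.999, and neither was Med23, at 0.108.

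**Figure D2:**
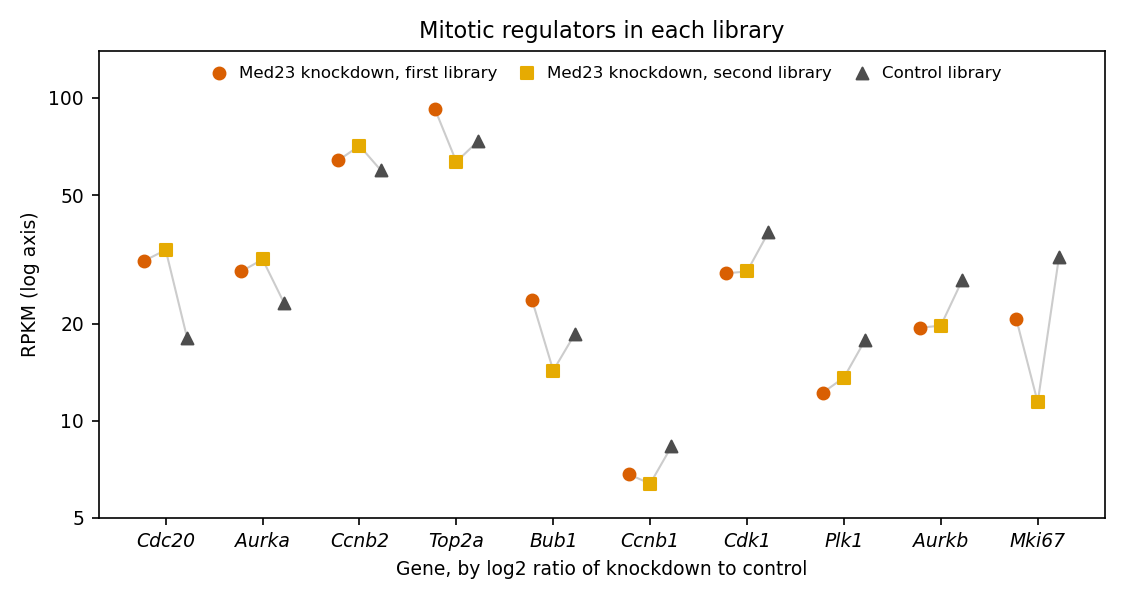
RPKM on a log axis for the 10 mitotic regulators in the first knockdown library (circles), the second knockdown library (squares) and the control library (triangles), ordered by log2 ratio of knockdown to control. Cdc20 lies higher in both knockdown libraries and Mki67 lower, and Mki67, Bub1 and Top2a show the widest gaps between the knockdown libraries.

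Of the kinase and cyclins of mitotic entry, Cdk1 fell, and neither cyclin passed the test. Cdk1 (ENSMUSG00000019942), the kinase itself, was 28.6 and 29.0 RPKM in the knockdown libraries, against 38.3 RPKM in the control. Both knockdown values lay below the control, at 0.745 and 0.758 of it, and the log2 ratio was -0.40 (SE 0.07, limma adjusted p = 0.00908). Ccnb1 (ENSMUSG00000041431), the cyclin that moves into the nucleus with Cdk1 at mitotic entry, was 6.82 and 6.38 RPKM, against 8.32 RPKM in the control. It too was lower in both, but the log2 ratio of -0.30 (SE 0.10) missed the threshold with a limma adjusted p = 0.0644, and passed it at 0.0239 after the correction for length and GC content. Ccnb2 (ENSMUSG00000032218), the Golgi-associated B-type cyclin, was 64.0 and 71.1 RPKM after knockdown and 59.7 RPKM in the control. The groups did not overlap, yet the log2 ratio of 0.17 (SE 0.08) did not pass (limma adjusted p = 0.135). After the length and GC correction it was -0.03, with the knockdown libraries on either side of the control at -0.11 and 0.05. Per length, Ccnb2 stood above Ccnb1 by 9.39-fold and 11.1-fold in the knockdown libraries and by 7.17-fold in the control. GENCODE names a pseudogene for each cyclin, Ccnb1-ps and Ccnb2-ps, so reads may have been split between copies.

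Among the Polo and Aurora kinases, Aurka was higher and Aurkb and Plk1 were lower. Plk1 (ENSMUSG00000030867), which matures centrosomes and acts again in cytokinesis, was 12.2 and 13.6 RPKM in the knockdown libraries and 17.8 RPKM in the control. Both knockdown values were lower, and the log2 ratio was -0.44 (SE 0.10), with a limma adjusted p = 0.0186. Aurkb (ENSMUSG00000020897), the kinase of the chromosomal passenger complex that corrects wrong attachments, was 19.4 and 19.7 RPKM, against 27.2 RPKM in the control. Its knockdown values lay close together, and the log2 ratio was -0.46 (SE 0.08, limma adjusted p = 0.00781). Aurka (ENSMUSG00000027496), which works at centrosomes and spindle poles, was 29.0 and 31.6 RPKM after knockdown and 23.2 RPKM in the control. Both lay above the control, and the log2 ratio was 0.37 (SE 0.09), with a limma adjusted p = 0.0189. The order of the Aurora mRNAs therefore turned round: Aurka over Aurkb was 1.5 and 1.60 in the knockdown libraries and 0.852 in the control. After correction for length and GC content Aurka's log2 ratio was 0.21 and missed the threshold (limma adjusted p = 0.0602), while those of Aurkb and Plk1 were -0.61 and -0.59 and passed (limma adjusted p = 0.000549 and 0.00137). With that correction 26.2% of all tested genes were called higher and 25.5% lower.

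Cdc20 (ENSMUSG00000006398), the activator and substrate reader of the anaphase-promoting complex, had the largest rise of the 10. It was 31.3 and 33.8 RPKM in the knockdown libraries, a mean of 32.5 ± 1.76 (SD, n = 2), against 18.1 RPKM in the control. Both values were more than 1.7 times the control, at 1.73-fold and 1.86-fold, and the log2 ratio was 0.81 (SE 0.09, limma adjusted p = 0.00188). With the length and GC correction it was 0.62, still past the test, although no longer 1.5-fold in both libraries. Elovl1, a fatty acid elongase on the opposite strand, shares 53 of the 1868 exon bases of Cdc20, and was 9.51 and 9.24 RPKM after knockdown and 4.82 RPKM in the control. The sources used here do not say whether counting used strand, so reads over those bases cannot be assigned. The same holds for Plk1, which shares 156 of 2199 exon bases with Gm44985 on the opposite strand. Top2a shares 122 of 9013 exon bases with Gm23451, a snoRNA on the same strand.

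Bub1 and Top2a were higher in the first knockdown library and lower in the second. Bub1 (ENSMUSG00000027379), the checkpoint kinase that marks kinetochores, was 23.7 and 14.3 RPKM, with the control between them at 18.5 RPKM. Top2a (ENSMUSG00000020914), which untangles sister DNA and helps shape mitotic chromosomes, was 92.1 and 63.4 RPKM, again on either side of the control at 73.3 RPKM. Their log2 ratios were 0.34 and 0.33 in the first and -0.35 and -0.20 in the second knockdown library, so the direction depends on which library is left out. After the length and GC correction Bub1 kept the split, with 0.37 and -0.18, while Top2a lay above the control in both libraries, with 0.52 and 0.08. Without that correction such a split was seen in 2 of the 10 genes and in 9.20% of all tested genes.

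Mki67 (ENSMUSG00000031004), which coats mitotic chromosomes and is read as a marker of cycling cells, was 20.6 and 11.4 RPKM in the knockdown libraries, a mean of 16.0 ± 6.50 (SD, n = 2), against 32.2 RPKM in the control. Both values lay below the control, at 0.640 and 0.354 of it, and the second was 0.553 of the first. The log2 ratio of -1.02 (SE 0.31) passed limma's test narrowly, with an adjusted p = 0.0409. Under the other settings limma's adjusted p ranged from 0.0409 to 0.512 and was past the threshold in 2 of 7. Those 2 were a pseudocount of 0.1 RPKM (limma adjusted p = 0.0431) and median centring. Centring returned the same values, because the libraries had equal medians. The length and GC correction brought the log2 ratio to -0.61, past the limit of 1.5-fold in the second library (-0.95) but not in the first (-0.27), and the adjusted p by limma to 0.0508. Its transcript of 10061 bases is in the longest class of all tested genes, 5098 bases or more, whose median log2 ratio was -0.27 in each knockdown library. Over all genes the knockdown ratio had a Spearman correlation of -0.38 with length, as a description. Without the second knockdown library the log2 ratio was -0.62, and without the first it was -1.42. Mki67 stood at the 84.3rd and 73.4th percentile of its library after knockdown and at the 89.8th in the control. Cdc20 over Mki67 was 1.52 and 2.97 in the knockdown libraries and 0.564 in the control.

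By level per length, the order of the genes also shifted. Top2a led in the first knockdown library and in the control and Ccnb2 in the second, and Ccnb1 was last in all 3. Cdc20 took the third place in both knockdown libraries and the eighth in the control, whereas Mki67 took the seventh and the ninth after knockdown and the fourth in the control. The 10 genes summed to 328 and 294 RPKM in the knockdown libraries and to 316 RPKM in the control, and without Mki67 to 307 and 283 RPKM, against 284 RPKM.

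**Figure D3:**
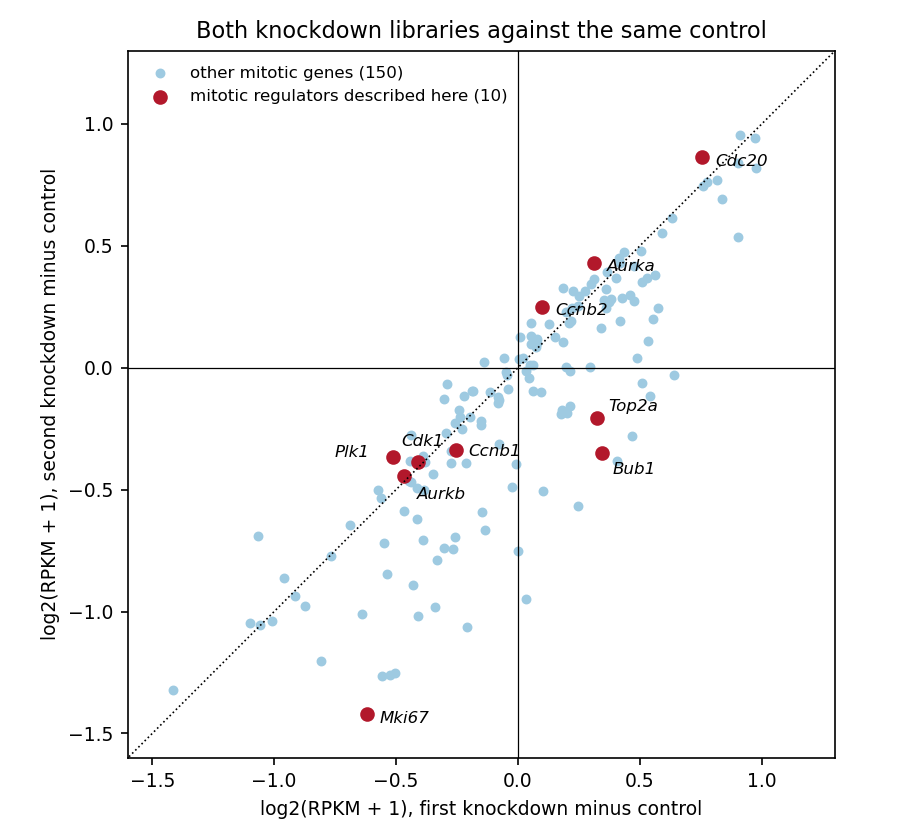
Difference in log2(RPKM + 1) from the control for the first (x axis) and the second (y axis) knockdown library, for the 10 mitotic regulators (red, named) and 150 other mitotic genes (blue). The dotted line marks equal ratios, and since both axes use the same control library the spread along it is shared. Mki67 lies furthest down, and Bub1 and Top2a lie right of and below 0.

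The gap between the knockdown libraries was largest for Mki67, Bub1 and Top2a. On the log2(RPKM + 1) scale the second minus the first was -0.80 for Mki67, -0.69 for Bub1 and -0.53 for Top2a, and between -0.08 and 0.15 for the other 7 genes. With 1 library each there is no test of this gap, and the genes were picked knowing that some of them differed here. At least 1.5-fold lower in the second was met by 2 of the 10, Mki67 and Bub1, and by 0.977% of all tested genes, and at least 1.5-fold higher by 0 of the 10 and 0.0411% of tested genes. Of the 9722 tested genes, 5 had a lower difference than Mki67, among them the mitotic genes Smc2, Sgol2 and Kif20b.

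Transcript GC content moved with this gap, in the mitotic genes and in all genes. The median difference, second minus first, was -0.09 in the lowest of 5 equal classes of GC content (33.1 to 44.4%) and 0.05 in the highest class (56.0 to 76.3%), and 4.42% and 0% of these genes were at least 1.5-fold lower in the second. Across 9614 tested genes the Spearman correlation of the difference with GC content was 0.33 and with transcript length 0.07, given as a description since genes are not replicates. Bub1 and Top2a, with 41.0% and 43.4% GC, fall in the lowest class, as does Ccnb1 with 44.2%, whose difference was -0.08. Mki67, with 46.6% GC and a transcript of 10061 bases, falls in the next class, where the median difference was 0.01 and 0.364% of genes were at least 1.5-fold lower. After correction for length and GC content the differences were -0.68 for Mki67, -0.55 for Bub1 and -0.44 for Top2a, so that Mki67 alone of the 10 stayed past 1.5-fold, where 0.154% of all tested genes did, and 0.0720% were 1.5-fold higher.

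**Figure D4:**
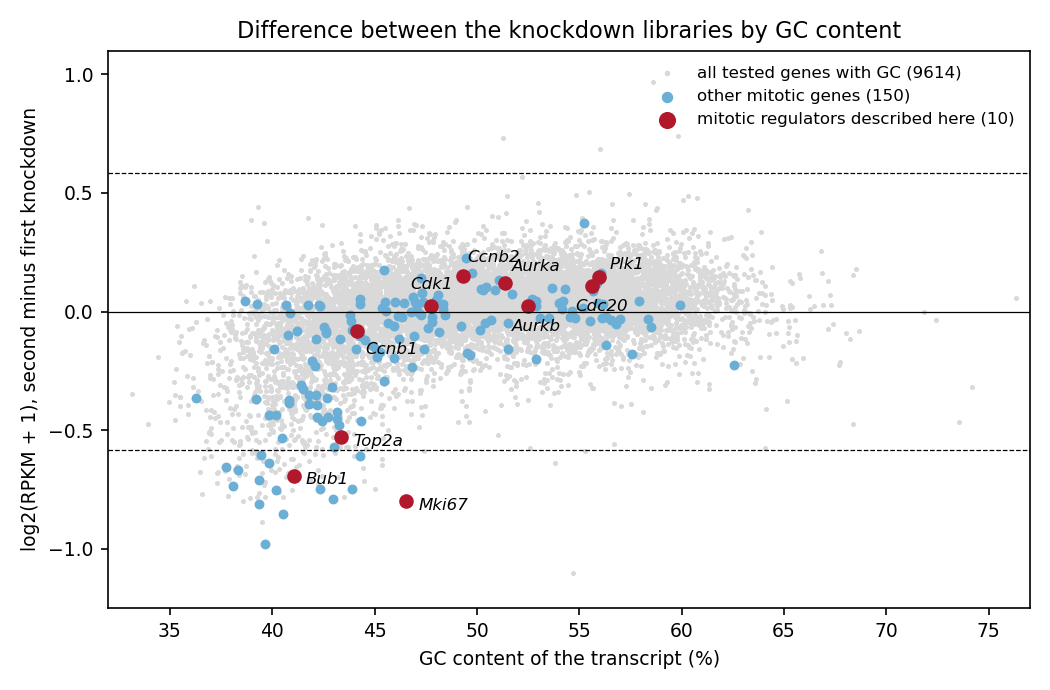
Difference in log2(RPKM + 1), second minus first knockdown library, against transcript GC content in percent, for all tested genes with a GC value (grey), 150 other mitotic genes (blue) and the 10 mitotic regulators (red, named). Dashed lines mark 1.5-fold. Values fall away at low GC content, and Mki67 lies below other genes of like GC content.

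Other genes of the mitotic machinery were taken from 10 lists by role, with 163 entries, of which 159 were in the table and 150 passed the filter. Of the 150, limma called 27 higher and 31 lower and left 92 uncalled, beside 50.3% called over all tested genes, and their median log2 ratio was -0.01. After the length and GC correction 38 were called higher and 32 lower, beside 26.2% and 25.5% of all tested genes. Changes of at least 1.5-fold in both libraries were met upward by 9 of the 150 and downward by 12, beside 10.5% and 9.98% of all tested genes. By the second knockdown library alone, without the first, 32 were 1.5-fold lower, and by the first alone 12. No share of all tested genes by a single library was taken, so these counts have no background. The DNA replication list, given for comparison, had 2 higher, 4 lower and 17 not past the test, with a median of -0.15.

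**Figure D5:**
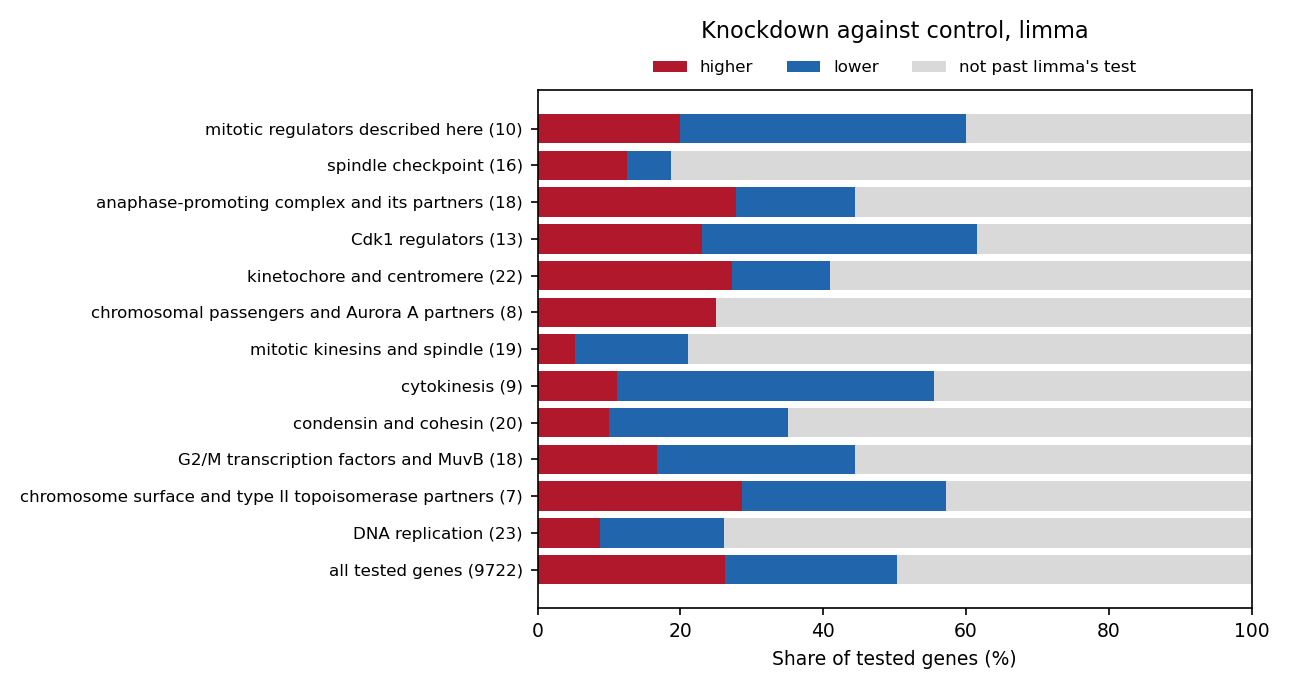
Share in percent of the tested genes of each list (number in brackets) that were higher (red), lower (blue) or not past limma's test (grey) in knockdown against control. The mitotic lists vary from no gene lower in the chromosomal passenger list to 4 of 9 lower in the cytokinesis list, with all tested genes at the bottom.

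Partners of Cdc20 and Cdk1 moved in both directions. In the list of the anaphase-promoting complex and its partners 5 of 18 rose and 3 fell, and 10 were not called. Over all tested genes 26.3% were called higher and 24.0% lower, which is the background for this and the following list counts. Ube2s and Ube2c, the ubiquitin-conjugating enzymes that serve the complex, rose by 0.87 and 0.57 on the log2 scale (limma adjusted p = 0.00167 and 0.00341). Fzr1, the activator that replaces Cdc20 late in mitosis, fell to 8.86 and 9.06 RPKM in the knockdown libraries, against 13.6 RPKM in the control (limma adjusted p = 0.00717). Among Cdk1 regulators 3 of 13 were higher, 5 lower and 5 not called. Cdc25c, a phosphatase that activates Cdk1, was 15.5 and 14.9 RPKM, against 8.35 RPKM in the control, a log2 ratio of 0.79. Ccnf, the cyclin of a ubiquitin ligase, and Gtse1, a microtubule-associated protein of G2, fell by 1.02 and 0.91 on the log2 scale (limma adjusted p = 0.00193 for each).

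Checkpoint and kinetochore genes were mostly not past the test. In the spindle checkpoint list 2 of 16 were higher, 1 lower and 13 not called. Mad2l1bp, which takes Mad2 off its partners, and Mad2l2, a Mad2 relative known from DNA repair, rose with log2 ratios of 0.96 and 0.93, and Kntc1, a kinetochore subunit, fell with -0.53. With the length and GC correction 5 of these 16 were called higher and 0 lower, so Kntc1 lost its call. Bub1b, a checkpoint partner of Bub1, was 19.3 and 18.6 RPKM after knockdown and 18.4 RPKM in the control (limma adjusted p = 0.731, named after its values were seen). In the kinetochore and centromere list 6 of 22 were higher, 3 lower and 13 not called. Mis12, of the complex that joins inner and outer kinetochore, fell to 2.49 and 2.50 RPKM, against 6.27 RPKM in the control, and Cenpb, which binds centromeric repeats, to 16.8 and 16.5 RPKM, against 32.4 RPKM. Cenpp, a centromere subunit, rose by a log2 ratio of 0.75.

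Lists of the spindle, cytokinesis and chromosome structure differed in direction. Among passengers and Aurora A partners 2 of 8 were higher, 0 lower and 6 not called. The risers were Kif20a, a kinesin of the central spindle, at 30.5 and 30.2 RPKM, against 17.4 RPKM in the control, and Birc5, the survivin subunit of the passenger complex, with a log2 ratio of 0.43. Of the kinesins and spindle genes 1 of 19 was higher, 3 lower and 15 not called, with Kifc1, a minus-end kinesin, higher at 0.39, and Aspm, of the spindle poles, and Kif18b, a plus-end kinesin, lower at -0.93 and -0.88. Aspm was low, at 1.04 and 0.900 RPKM, against 2.74 RPKM in the control, and its transcript has 9867 bases. Kif18b had -1.06 in the first and -0.69 in the second knockdown library. After the length and GC correction 6 of these 19 were called higher and 2 lower. Of the 8 passengers and Aurora A partners 3 were then called higher and 1 lower. In cytokinesis 1 of 9 was higher, 4 lower and 4 not called, and Anln, which scaffolds the contractile ring, Cep55 and Diap3 had log2 ratios of -0.63, -0.66 and -0.55. Condensin and cohesin genes had 2 of 20 higher, 5 lower and 13 not past the test. With the length and GC correction they had 2 higher and 6 lower, and the cytokinesis genes 2 higher and 6 lower. Rad21, the cohesin subunit that separase cuts, fell to 46.1 and 47.9 RPKM, against 100 RPKM in the control (log2 ratio -1.07, limma adjusted p = 0.000449), and Pds5b, a cohesin regulator, fell by 0.82 on the log2 scale, while Cdca5, which protects cohesion, rose by 0.90. Among partners of chromosomes and topoisomerases 2 of 7 were higher, 2 lower and 3 not called. Top2b, the paralog of Top2a also made by cells that do not divide, was 10.5 and 7.78 RPKM, against 19.2 RPKM in the control, and Rif1, a replication timing factor, and H2afz, a histone variant, had log2 ratios of -0.91 and 0.43. Rif1 had -0.56 in the first and -1.27 in the second knockdown library (limma adjusted p = 0.0450). With the length and GC correction 2 of these 7 were called higher and 1 lower, so at least 1 of Top2b and Rif1 lost its call.

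Factors known to act on such promoters were among the 3 of 18 higher, 5 lower and 10 not past the test in the list of G2/M transcription factors. Nfya, the subunit of NF-Y that contacts the CCAAT box, fell to 3.98 and 4.31 RPKM in the knockdown libraries, against 12.3 RPKM in the control, or -1.37 on the log2 scale (SE 0.11, limma adjusted p = 0.000858). Nfyb, its partner, was 4.17 and 4.15 RPKM, against 4.92 RPKM (limma adjusted p = 0.176), and Nfyc was below the filter at 0.391 and 0.372 RPKM, against 0.504 RPKM. E2f5 and Rbl2, a repressor E2F and a pocket protein, fell with log2 ratios of -0.77 and -0.67. Foxm1, an activator of G2/M genes, had a log2 ratio of 0.25 (limma adjusted p = 0.0725). Of the MuvB subunits Lin37 rose by 0.36 (limma adjusted p = 0.0432), and Lin54, which binds DNA, Lin9 and Lin52 had log2 ratios of -0.28, -0.31 and -0.03 that did not pass. Nfyb, Nfyc, Foxm1 and the MuvB subunits were named after their values were seen. Among 118 other mitotic genes with a promoter window, the 57 with TTTGAA or TTCGAA had a median log2 ratio of -0.01 and the 61 without had 0.01. For CCAAT the medians were 0.01 in 68 genes with it and -0.01 in 50 without. Whether Nfya's level bears on the regulators was not tested.

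The gap between the knockdown libraries was seen in these lists too. At least 1.5-fold lower in the second were 14 of the 150 (9.33%), beside 0.977% of all tested genes, and 0 were 1.5-fold higher. All 14 came from the 61 genes in the lowest class of GC content, whose median difference was -0.37, beside -0.09 for all genes of that class. Of all tested genes of that class 4.42% were at least 1.5-fold lower in the second. The lists were chosen with earlier results of these data known, so these counts are a description and no independent support. Across the 150 genes the Spearman correlation of the difference was 0.59 with GC content and -0.22 with length, as a description. Condensin and cohesin genes held 7 of the 14, among 20 tested. Smc2, a coiled-coil ATPase of condensin, was 16.0 and 7.63 RPKM in the knockdown libraries, with the control at 15.6 RPKM, and Smc4, its partner, was 35.3 and 20.5 RPKM, with the control at 35.3 RPKM. The other condensin subunits were named after their values were seen. Ncapg, Ncapg2 and Ncapd3, with 39.8%, 44.3% and 46.8% GC, had differences of -0.64, -0.61 and -0.23, and Ncaph, Ncapd2 and Ncaph2, with 48.3%, 54.0% and 55.7% GC, had 0.03, 0.04 and 0.09. Sgol2, a protector of centromeric cohesion, Kif20b, a kinesin of cytokinesis, and Cenpe, a kinetochore kinesin, completed the 5 largest gaps with -0.85, -0.81 and -0.79, and 39.4 to 42.9% GC. After the length and GC correction 6 of the 150 were at least 1.5-fold lower, 2 of them, Smc2 and Smc3, condensin and cohesin genes. The part of GC content in these gaps beyond that correction was not tested.

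Patterns most like those of Mki67 and Cdc20 were sought among the other 159 tested mitotic genes, by the distance between the pairs of log2 ratios against the control, a measure over 3 libraries. Nearest to Mki67 were Rif1, Stag2, Ckap5, Top2b and Pds5b, at distances of 0.17 to 0.41. These ratios were not corrected for length and GC content. Transcripts of Rif1, Top2b and Pds5b have 8509, 10335 and 7417 bases, in the longest class like that of Mki67. Their GC content is 39.3%, 42.2% and 40.8%, in the lowest class. How far length and GC content bear on the likeness was not tested. Ckap5, a microtubule polymerase, was 40.4 and 23.6 RPKM after knockdown and 57.8 RPKM in the control, and Stag2, a cohesin subunit, was 8.77 and 4.86 RPKM, against 13.0 RPKM. Nearest to Cdc20 were Kif20a, Cdc25c, Cenpp, Ube2s and Mad2l2, at distances of 0.10 to 0.18. Their log2 ratios lay between 0.75 and 0.96 in both knockdown libraries. Transcripts of Cdc25c, Cenpp, Ube2s and Mad2l2 have 1945, 1144, 1238 and 1535 bases, and that of Cdc20 has 1793. Over all tested genes of up to 1735 bases the median log2 ratios were 0.27 and 0.26 in the knockdown libraries. From 1735 to 2640 bases they were 0.15 and 0.15, and in the class of Kif20a, with 3674 bases, -0.12 and -0.11. How far length bears on this likeness was not tested either.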

How the data were processed

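RNA sequencing values of 1 control and 2 knockdown libraries of B16F10 cells were read from the authors' deposited table, whose unit is RPKM. CASAVA 1.4, TopHat, Cufflinks and mm9 are listed in the submitters' processing notes without their roles. How genes were annotated, filtered and normalized was not given there. Ranked values matched across the columns at 95.3% of ranks (to a relative 1e-09), so they had been quantile normalized, and they hold no read depth.

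Values were analysed as log2(RPKM + 1), on which a log2 ratio understates the change of low genes. The 9722 genes averaging 1 RPKM or more were fitted with limma 3.58.1 in R 4.3.3 (eBayes with an intensity trend, 1 residual and 4.37 prior degrees of freedom), with Benjamini-Hochberg adjustment over them and a threshold of 0.05. The fit was tested on simulated data. Named genes were the 10 regulators, up to 3 called genes of each list with the largest smaller change, the 5 largest gaps between knockdown libraries, and the 5 nearest patterns. The members and lists were chosen with earlier results of these data known. Length and GC content came from GENCODE M21 (98.1% of gene IDs matched), and promoters from RefSeq, GRCm38.p6, matched by symbol. Neither is mm9, and the table holds no coordinates. The correction for length and GC content was a loess fit of each library's deviation from the gene mean. Other settings were no filter, a 5 RPKM minimum, a pseudocount of 0.1, median centring, no intensity trend, a larger control SD, a 2-fold limit, and each knockdown library left out. Python 3.11.15, pandas 2.3.3, numpy 2.4.6 and matplotlib 3.10.9 were used.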

Additional observations from a re-analysis of the deposited data

How the results depend on the processing

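Of the 10 regulators 2 were called higher and 4 lower by limma, and of the 150 other mitotic genes 27 and 31. All 4 counts became 0 when the control was assumed to have 3 times the SD of a knockdown library, where 2.01% of all tested genes were called instead of 50.3%. With the length and GC correction 1 regulator was called higher, 0 were 1.5-fold higher in both libraries, 1 was 1.5-fold lower in the second library than in the first, and 6 other mitotic genes were, in place of 2, 1, 2 and 14. With a 2-fold limit, 0 regulators and 0 other mitotic genes were lower in the second. Only 5 of the 9722 tested genes had a lower difference than Mki67 (-0.80), so few genes of any kind could meet that limit. These 0 counts therefore say little about the mitotic genes. The 12 other mitotic genes at least 1.5-fold lower in both libraries became 7 with a minimum of 5 RPKM, where fewer genes were tested. With 1 knockdown library left out, this count was between 12 and 32, the highest without the first library, with no share of all tested genes beside it. The 9 other mitotic genes higher in both became 9 to 12 with a library left out, and 6 after the length and GC correction. For the regulators the count was 1 each way with either library left out, and the 1 lower after that correction was Aurkb in place of Mki67. No share of all tested genes was taken with a library left out. Some settings could not move a value of a single gene. Median centring returned the same values, because the libraries had equal medians. The filter settings could not move a gene's difference between the knockdown libraries. Such values are among the 148 that follow, so the number kept overstates the stability. Of 148 values of single genes under other settings 130 kept their direction and side of the threshold, 12 lost the call, 1 gained it, 1 no longer met the fold limit and 4 turned their direction, none of them called. These 4 log2 ratios were -0.03 for Ccnb2 (0.17 as reported) and 0.09 for Bub1 (0.00) with the length and GC correction, 0.34 for Bub1 without the second library (-0.35 without the first), and -0.20 for Top2a (0.06) without the first (0.33 without the second). Mki67 lost its call under 5 of 7 settings, and 1 of the 2 that kept it was median centring. The cause was not tested. No paired analysis was possible because the control has 1 library. Depth is unknown, and 2 knockdown libraries limit the precision.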
